A study of Mus musculus with 9 samples.

Results

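The Bcl2 family is the set of related proteins that decides whether a cell's mitochondria stay intact or release the factors that start apoptosis. Bcl2, Bcl2l1 (Bcl-xL) and Mcl1 hold the mitochondrial outer membrane closed, Bax and Bak1 form pores in it once activated, and the BH3-only proteins Bid, Bcl2l11 (Bim), Bmf, Bbc3 (Puma) and Pmaip1 (Noxa) bind the survival proteins or the pore formers and push the balance towards death. In the myeloid lineage Mcl1 is known as the survival protein on which granulocytes depend, and mature neutrophils are short-lived cells that die by apoptosis. The members were every probe set whose platform annotation gave exactly 1 gene symbol and whose symbol was 1 of 10 family genes. This rule found 30 probe sets of 9 genes among the 45037 tested: 6 for Mcl1, 5 each for Bcl2 and Bcl2l11, 4 for Bcl2l1, 3 each for Bid and Bmf, 2 for Bak1 and 1 each for Bbc3 and Pmaip1. Bax has no probe set under this rule, so its level was not analysed here.

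Normal bone marrow cells of C57BL/6 mice, of either sex and aged between 4 and 10 weeks, were sorted into 3 populations with 3 arrays each. Both myeloblast populations were c-kit+ Gr1+ cells negative for B220, TER119, CD3, CD4, CD8 and IL7Rα. They were split by Mac1 into Mac1- myeloblasts, a gate that also admits cells with low Mac1, and Mac1+ myeloblasts. Neutrophils were c-kit- Gr1+ Mac1+ cells, and no genetic change or treatment was named for any population. The labels do not say whether the 3 arrays of a population came from separate or pooled mice, so a p-value here measures the spread between these arrays, which may be technical. Messenger RNA was amplified through 2 labelling cycles and hybridised to oligonucleotide arrays, and a level below is the deposited linear intensity of a probe set. Because probe sets bind with different strength, levels were compared between populations and never between probe sets. In sorted bulk cells, fewer cells with a transcript and less of it in each cell cannot be told apart.

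The sort antigens followed the labels. Kit read 2998 to 3469.9 on the 6 myeloblast arrays and 94.9, 295 and 331 on neutrophil arrays 1 to 3, and Itgam, which encodes Mac1, read 69.2 to 74.1 in Mac1- myeloblasts, 695 to 919.8 in Mac1+ myeloblasts and 2027 to 3675 in neutrophils. Neutrophil array 1 stood apart from its group: its correlation with neutrophil arrays 2 and 3 over all probe sets was 0.9196 and 0.8967, against 0.9799 between those arrays and at least 0.9836 within either myeloblast population. Its median intensity was 61.8, against 39.1 to 45.4 on the other 8 arrays. It also carried more of Mpo, an early granule gene (7132 against 1712 and 778), a larger sum over 6 stem and progenitor markers (2523 against 1270.1 and 1106), a larger sum over 7 monocyte and macrophage markers (21723 against 16656 and 14310), and a larger sum over 7 B cell markers (2705 against 1246 and 1051). Of that last sum Ebf1 made up 2112, 985 and 836, Cd79a and Ms4a1 were highest on array 1, Cd79b read 65, 79.2 and 59.2, and Pax5 and Blnk stayed under 100 on all 9 arrays. Of the monocyte and macrophage sum Csf1r made up 12949, 7976 and 7112. Ly86, Ccr2 and Cd14 were also highest on neutrophil array 1, while Ctss, Adgre1 and Cx3cr1 were highest on array 2. The part of these differences in the values of the family was not tested, and results that rest on neutrophil array 1 are given with and without it.

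Mcl1, Bcl2l1, Bmf, Bbc3 and Pmaip1 were higher in neutrophils than in both myeloblast populations, Bcl2 was lower in neutrophils than in Mac1- myeloblasts, and the calls between the myeloblast populations were in Bcl2 and Bcl2l1. Differences are on the log2(intensity + 16) scale, ± the standard error of limma's fit over all probe sets and 9 arrays, and a call means a Benjamini-Hochberg adjusted p under 0.05. In neutrophils against Mac1+ myeloblasts, 16 of 30 member probe sets were called higher and 1 lower (53.3% and 3.33%), beside 19.8% higher and 21% lower among all probe sets. Against Mac1- myeloblasts, 14 were called higher and 2 lower (46.7% and 6.67%), beside 22.5% and 22.6% of all probe sets. In Mac1+ against Mac1- myeloblasts, 1 was called higher and 2 lower (3.33% and 6.67%), beside 3.69% and 3.1% of all probe sets, so that 1 or 2 members set the whole difference from the background. The median difference of the members in the same order of comparisons was 0.90, 0.65 and -0.23, and that of all probe sets was 0.16, 0.16 and 0.00044.

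Probe sets of 1 gene share a target, and 6 of those called higher in each neutrophil comparison belong to Mcl1. With each gene reduced to its brightest probe set, 5 of 9 genes were higher in neutrophils than in Mac1+ myeloblasts (Mcl1, Bcl2l1, Bmf, Bbc3 and Pmaip1) and 1, Bak1, was lower, while 18.5% of all 18193 genes were called higher and 27.6% lower by the same reduction. Those 5 genes were also higher than in Mac1- myeloblasts and Bcl2 was lower, beside 21.2% and 29.3% of all genes. Between the myeloblast populations Bcl2l1 was higher and Bcl2 lower in Mac1+ cells, beside 5.13% and 4.44% of all genes. The 7 member probe sets with a mean intensity under 100 in all 3 populations are called dim here and give weak evidence on a gene, and 23 were not dim. Shares of all probe sets or genes, here and below, take in every intensity, and none was taken over features of like intensity.

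**Figure D1:**
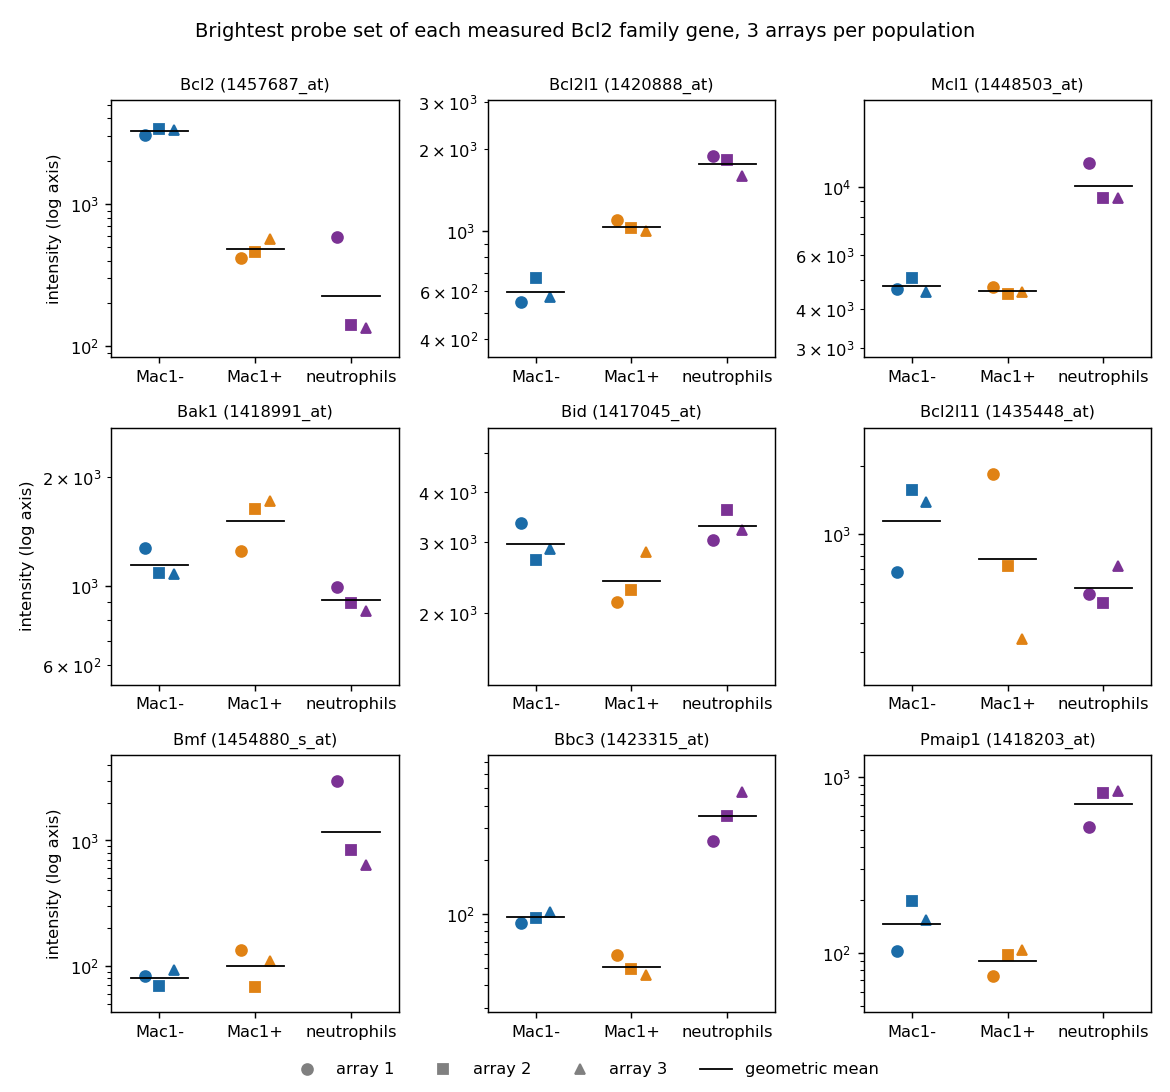
Intensity (log axis) of the brightest probe set of each of the 9 measured family genes on the 3 arrays of each population, with marker shape giving the array number and the line the geometric mean. Bcl2 falls from Mac1- myeloblasts to Mac1+ myeloblasts, Mcl1, Bcl2l1, Bmf, Bbc3 and Pmaip1 are highest on all 3 neutrophil arrays, and the Bcl2l11 arrays of 1 population spread widely.

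Bcl2, the founding survival protein of the family, was lower in Mac1+ than in Mac1- myeloblasts. Its brightest probe set, 1457687_at, read 3053, 3356 and 3313 on Mac1- arrays 1 to 3 and 418, 461 and 569 on Mac1+ arrays 1 to 3. On neutrophil arrays 1 to 3 it read 589, 142 and 134. All Mac1- arrays lay far above the other 6, while neutrophil array 1 lay above the highest Mac1+ array and neutrophil arrays 2 and 3 below the lowest. The difference of Mac1+ from Mac1- myeloblasts was -2.72 ± 0.47 (6.58-fold lower, adjusted p = 0.0077), and the call held under all 20 alternatives, at an adjusted p of at most 0.0402. Neutrophils differed from Mac1- myeloblasts by -3.74 ± 0.47 (13.4-fold lower, adjusted p = 0.000137), also called under all 20 alternatives, and by -4.40 with an adjusted p of 1.13e-07 without neutrophil array 1. Some markers of other cells differed in the same direction between the myeloblast populations. All 7 measured monocyte and macrophage markers were lower on each Mac1+ array than on any Mac1- array. Their sums were 25620 to 27741 in Mac1- and 2628 to 4278 in Mac1+ myeloblasts, and 14310 to 21723 in neutrophils. The progenitor marker Cd34 read 3352, 3317 and 3215 against 54.1, 73.6 and 69.9. Flt3, Sox4 and Gata2 of that list were also lower on every Mac1+ array. Myb (8865 to 10074 against 8251 to 9807) and Meis1 (35 to 49.6 against 34.4 to 40) overlapped. The sum over 7 T and NK cell markers, mostly Nkg7, ran the other way (7742 to 8222 against 10849 to 12077). Their part in the Bcl2 difference was not tested. A further step from Mac1+ myeloblasts to neutrophils was not called, at -1.03 ± 0.47 (adjusted p = 0.112), was -1.22 with centred arrays (adjusted p = 0.0304), and without neutrophil array 1 was -1.68 with an adjusted p of 2.92e-05.

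The other Bcl2 probe sets gave the same order between the myeloblast populations, with no overlap of their arrays, and differed in what they read on the neutrophil arrays. Probe set 1422938_at read 299, 388 and 348 in Mac1- myeloblasts, 50.3, 93.5 and 75.8 in Mac1+ myeloblasts and 94.5, 29.1 and 13.7 in neutrophils. It was lower in Mac1+ myeloblasts by a difference of -2.04 ± 0.43 (adjusted p = 0.0207) and in neutrophils against Mac1- by -2.76 ± 0.43 (adjusted p = 0.000546). Without neutrophil array 1 the difference of neutrophils was -3.29 with an adjusted p of 8.04e-06 against Mac1- and -1.26 with an adjusted p of 0.00352 against Mac1+ myeloblasts, the latter against -0.72 ± 0.43 (adjusted p = 0.209) with it. The call between the myeloblast populations was lost when any 1 of the 6 myeloblast arrays was left out (adjusted p from 0.0531 to 0.0942, with differences from -2.20 to -1.84) or an offset of 1 was used (-2.26, adjusted p = 0.0934). Probe set 1437122_at read 629, 716 and 691, then 95.7, 114 and 111, and then 759.9, 84.4 and 54: neutrophil array 1 stood above every Mac1- array and neutrophil arrays 2 and 3 below every Mac1+ array. Its difference of neutrophils from Mac1+ myeloblasts was 0.52 ± 0.74 (adjusted p = 0.606) and turned to -0.55 with an adjusted p of 0.0318 without that array. Against Mac1- myeloblasts it was -1.98 ± 0.74 (adjusted p = 0.0541), and -3.05 with an adjusted p of 1.39e-06 without that array, 1 of 4 alternatives out of 19 under which it was called. Probe sets 1440770_at and 1443837_x_at were also highest there, at 525 and 1080.2 on neutrophil array 1 against at most 105 and 151 on the other neutrophil arrays. Neither was called in neutrophils against Mac1+ (adjusted p = 0.13 and 0.181), at 3.12- and 2.84-fold. Without neutrophil array 1 these folds were 1.53 and 1.3 (adjusted p = 0.303 and 0.478), while without neutrophil array 3, which leaves array 1 more weight, both were called higher (2.61 and 2.39, adjusted p = 0.00461 and 0.0216). Against Mac1- myeloblasts 1440770_at differed by -1.02 ± 0.79 (adjusted p = 0.324) and was called lower without neutrophil array 1 (-2.05 with an adjusted p of 0.00463), and 1443837_x_at differed by 0.17 ± 0.83 (adjusted p = 0.884) and by -0.95 with an adjusted p of 0.0804 without it.

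Because the 9 arrays share 1 estimate of spread for each probe set, neutrophil array 1 also entered the test between the myeloblast populations. The difference of Mac1+ from Mac1- myeloblasts was -2.50 ± 0.74 for 1437122_at, -2.66 ± 0.79 for 1440770_at and -1.33 ± 0.83 for 1443837_x_at, at adjusted p of 0.0906, 0.0927 and 0.562. Without neutrophil array 1 these adjusted p became 2.62e-05, 0.00268 and 0.0411 with the same differences, and all 5 Bcl2 probe sets were then called lower. For 1440770_at the call was also gained without neutrophil array 3 (adjusted p = 0.0125). Probe set 1443837_x_at is of a design that can bind other transcripts too. The windows of 250 bases before the annotated RefSeq transcript starts (GRCm38.p6) are shown for Bcl2 and Mcl1, the survival genes with the largest called differences, and for Bbc3 and Bcl2l11, which hold a forkhead match, since factors known to act on these genes were read on the same arrays. The Bcl2 window, chr1:106714291-106714540 on the minus strand, is 74.8% G and C and holds 7 GC boxes (GGGCGG on either strand, in capitals), a motif found in 32.7% of 32851 such windows.
Bcl2: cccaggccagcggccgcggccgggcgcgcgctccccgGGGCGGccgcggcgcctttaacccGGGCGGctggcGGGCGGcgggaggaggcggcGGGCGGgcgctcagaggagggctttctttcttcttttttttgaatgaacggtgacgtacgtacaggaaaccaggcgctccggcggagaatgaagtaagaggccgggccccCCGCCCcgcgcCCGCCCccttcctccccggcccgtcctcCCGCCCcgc

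**Figure D2:**
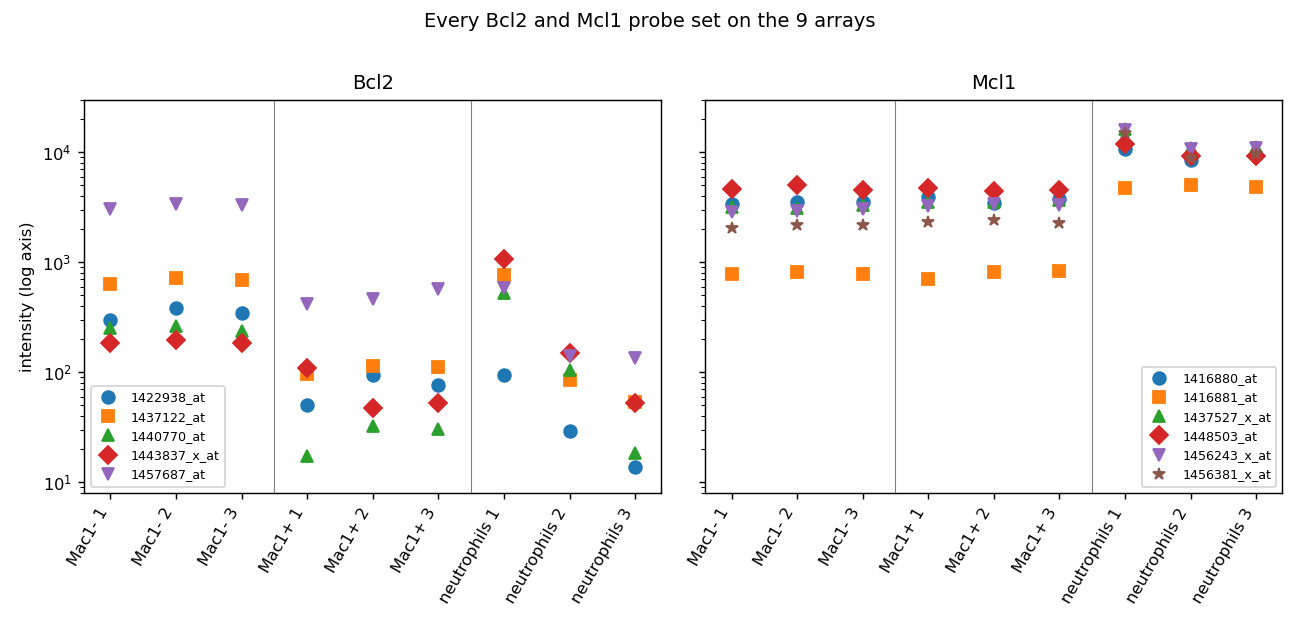
Intensity (log axis) of the 5 Bcl2 probe sets (left) and the 6 Mcl1 probe sets (right) on each of the 9 arrays. Every Bcl2 probe set is lower on all Mac1+ arrays than on any Mac1- array and splits neutrophil array 1 from arrays 2 and 3, while every Mcl1 probe set is higher on all 3 neutrophil arrays than on any myeloblast array.

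Mcl1, the short-lived survival protein that binds Bim and Noxa, was higher in neutrophils, with no call between the myeloblast populations. Its brightest probe set, 1448503_at, read 4674, 5049 and 4554 on Mac1- arrays, 4734, 4485 and 4566 on Mac1+ arrays and 11925, 9206 and 9159 on neutrophil arrays. The myeloblast arrays overlapped and the lowest neutrophil array was well above them. Neutrophils exceeded Mac1+ myeloblasts by 1.12 ± 0.16 (2.18-fold, adjusted p = 0.000418) and Mac1- myeloblasts by 1.07 ± 0.16 (2.1-fold, adjusted p = 0.000459). Between the myeloblast populations the difference was -0.05 ± 0.16 (adjusted p = 0.987). Probe set 1416881_at moved furthest, from 789, 822 and 775 in Mac1- and 704, 810.3 and 832 in Mac1+ myeloblasts to 4757, 5089.7 and 4784 in neutrophils, a difference of 2.62 ± 0.14 from Mac1+ cells (adjusted p = 9.48e-07). All 6 Mcl1 probe sets were called higher in both neutrophil comparisons, 2.18- to 6.14-fold over Mac1+ and 2.1- to 6.03-fold over Mac1- myeloblasts, and no alternative run ended any of these 12 calls.

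The size of the Mcl1 change therefore depended on the probe set read. The 3 probe sets of the x_at design, which can bind related sequences, read up to 16098 on neutrophil array 1, and the highest intensity of any probe set on an array lay between 18326 and 22749. The Mcl1 window, chr3:95658471-95658720 on the plus strand, is 64.4% G and C and holds 1 GC box on its reverse strand, in capitals. It holds no match to the palindromic STAT motif TTCNNNGAA, which 7.02% of all windows hold, or to the cyclic AMP response element TGACGTCA, which 1.55% hold. A missing match says only that these letters are not in this window.
Mcl1: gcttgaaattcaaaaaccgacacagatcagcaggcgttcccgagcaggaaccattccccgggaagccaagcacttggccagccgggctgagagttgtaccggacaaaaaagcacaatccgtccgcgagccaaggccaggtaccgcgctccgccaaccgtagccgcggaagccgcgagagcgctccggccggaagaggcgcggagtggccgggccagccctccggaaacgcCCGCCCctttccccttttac

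Bcl2l1 rose at both steps on 1420888_at, its only probe set that was not dim. The gene encodes the survival protein Bcl-xL and by splicing a shorter death-promoting form that these probe sets were not used to separate. Probe set 1420888_at read 551, 673 and 569.7 on Mac1- arrays, 1094, 1027 and 998 on Mac1+ arrays and 1895, 1825 and 1602 on neutrophil arrays, with no overlap between any populations. Mac1+ exceeded Mac1- myeloblasts by 0.79 ± 0.16 (1.73-fold, adjusted p = 0.0159), and neutrophils exceeded Mac1+ myeloblasts by 0.76 ± 0.16 (1.69-fold, adjusted p = 0.0037). Over both steps the difference was 1.55 ± 0.16 (2.92-fold, adjusted p = 3.24e-05). The first step lost its call without Mac1- array 1 or 3 or without any 1 of the Mac1+ arrays, with differences from 0.73 to 0.82 and adjusted p from 0.0525 to 0.0875. The other 3 Bcl2l1 probe sets were dim, and of these 1426191_a_at was called higher in neutrophils at intensities of 30.3 to 44.9 against 12.5 to 22.1 in the myeloblasts. Its call against Mac1+ was lost without Mac1+ array 2 or 3 (0.58 and 0.55, adjusted p = 0.0669 and 0.0655) and with centred arrays (0.41, adjusted p = 0.175), and 1426050_at gained calls without neutrophil array 2 (1.53 against Mac1+ and 1.29 against Mac1-, adjusted p = 0.0199 and 0.0363). The remaining dim probe set, 1420887_a_at, read 27.5 to 74.6 over all arrays and had no call. It differed by 0.29 in Mac1+ against Mac1- myeloblasts and by -0.24 in neutrophils against Mac1+ (adjusted p = 0.751 and 0.473).

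Among the pore formers only Bak1 was analysed here, and it was lower in neutrophils than in Mac1+ myeloblasts. Probe set 1418991_at read 1273, 1081 and 1079 on Mac1- arrays, 1246, 1629 and 1715 on Mac1+ arrays and 992, 893 and 849 on neutrophil arrays, all 3 neutrophil arrays lying below all 6 myeloblast arrays. Neutrophils were lower than Mac1+ myeloblasts by a difference of -0.73 ± 0.18 (1.65-fold lower, adjusted p = 0.0093), a call that was lost under quantile normalization (-0.41, adjusted p = 0.0898). Against Mac1- myeloblasts the difference was -0.32 ± 0.18 (adjusted p = 0.173), and between the myeloblast populations it was 0.40 ± 0.18 (adjusted p = 0.303). The other Bak1 probe set, 1425716_s_at, was dim, at 3.8 to 70.7 over all arrays, with no call in any comparison.

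**Figure D3:**
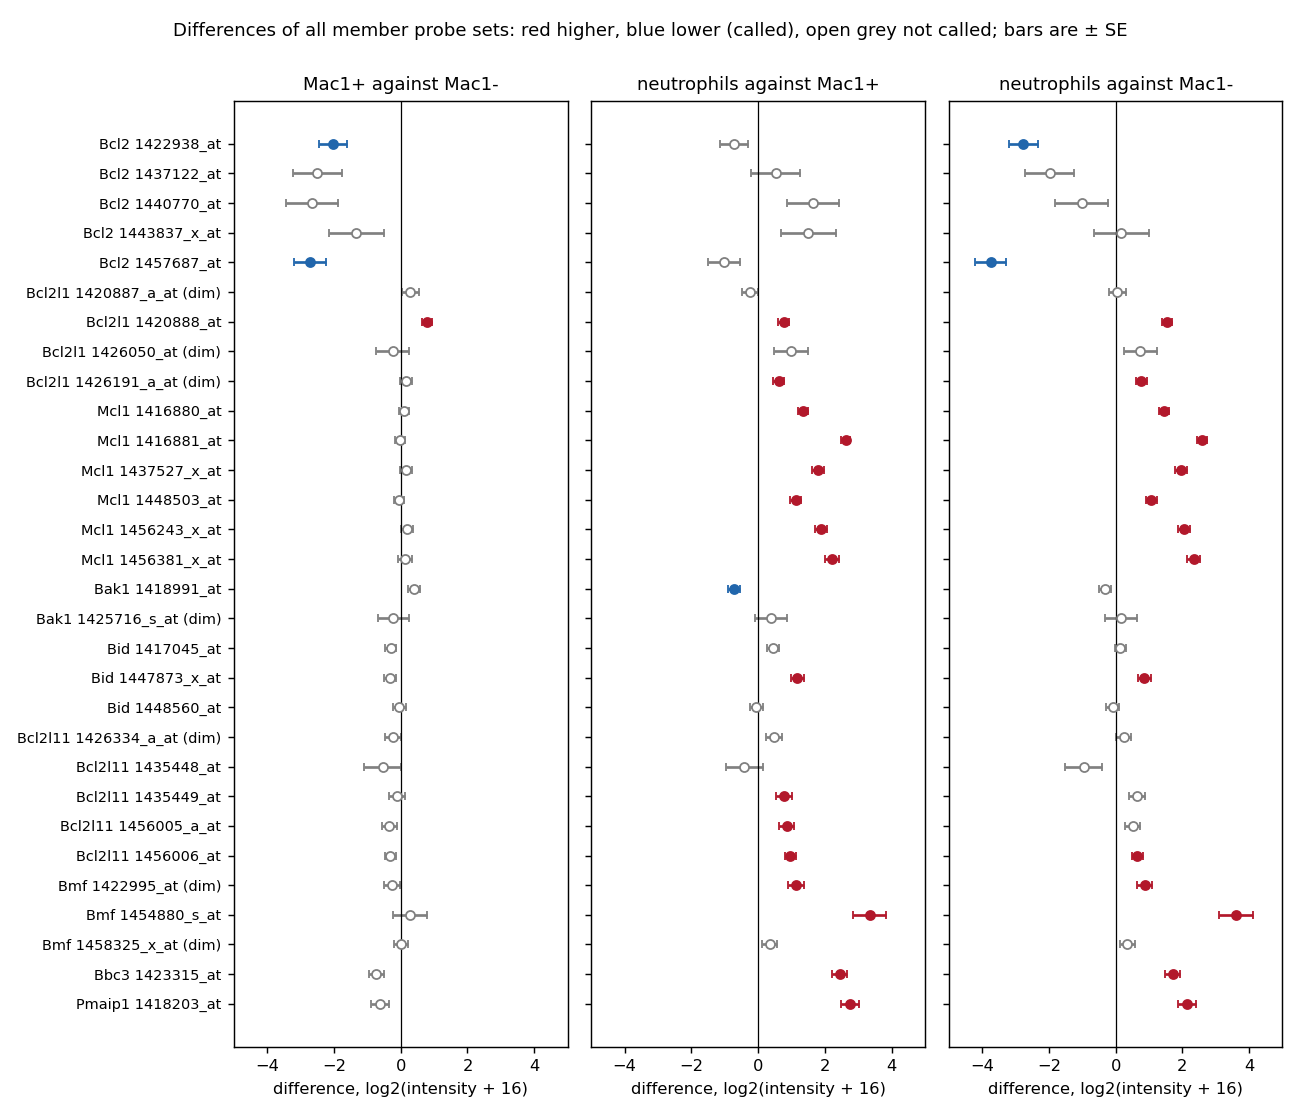
Difference on the log2(intensity + 16) scale for all 30 member probe sets in the 3 comparisons, with bars giving ± the standard error. Filled red and blue points were called higher and lower at an adjusted p under 0.05, and open grey points were not called. The 6 Mcl1 points lie near 0 in the left panel and to the right in the other panels, and the Bcl2 points lie left of 0 in the left panel.

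Of the BH3-only genes, Bmf, Bbc3 and Pmaip1 were all higher in neutrophils than in both myeloblast populations. Bmf, whose protein binds the dynein light chain of the motor complexes before it acts on survival proteins, had the largest rise of any member over all arrays. Probe set 1454880_s_at read 82.5, 69.6 and 92.4 on Mac1- arrays, 135, 68.6 and 109 on Mac1+ arrays and 2972, 837 and 641 on neutrophil arrays. The myeloblast arrays overlapped near the dim limit of 100, and the lowest neutrophil array was several times the highest of them. The difference was 3.34 ± 0.50 from Mac1+ (10.1-fold, adjusted p = 0.000552) and 3.61 ± 0.50 from Mac1- myeloblasts (12.2-fold, adjusted p = 0.000274). Neutrophil array 1 carried the largest value: without it the differences were 2.68 with an adjusted p of 3.34e-05 and 2.95 with an adjusted p of 1.44e-05, or 6.39-fold and 7.71-fold. Pmaip1 then rose further than Bmf against Mac1+ myeloblasts, by 2.97 (7.83-fold). Probe set 1454880_s_at is of a design that can bind other transcripts, and the alternative without such probe sets did not test it. The dim probe set 1422995_at was also called higher, at 20.8, 39.8 and 25.1 in neutrophils against at most 11.1 on any myeloblast array, and its call against Mac1- myeloblasts was lost without Mac1- array 2 (0.79, adjusted p = 0.0543), with centred arrays (0.71, adjusted p = 0.0682), under quantile normalization (0.72, adjusted p = 0.0549) and with an offset of 1 (1.69, adjusted p = 0.0563). The third Bmf probe set, 1458325_x_at, was dim, at 1 to 15.8 over all arrays, and had no call (0.34 against Mac1+, adjusted p = 0.248).

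Bbc3 and Pmaip1, both known as genes that p53 can induce, were higher in neutrophils as well, and within neutrophils were lowest on array 1. Bbc3 probe set 1423315_at read 89.2, 95 and 103 on Mac1- arrays, 58.9, 49.2 and 45.4 on Mac1+ arrays and 254, 351 and 475 on neutrophil arrays, with no overlap between any populations. Neutrophils exceeded Mac1+ myeloblasts by 2.45 ± 0.22 (5.45-fold, adjusted p = 2.12e-05) and Mac1- myeloblasts by 1.71 ± 0.22 (3.27-fold, adjusted p = 0.000182). Its difference between the myeloblast populations, -0.74 ± 0.22, was not called (adjusted p = 0.101) and was called without neutrophil array 1 (adjusted p = 0.0119) or 3 (adjusted p = 0.0429), with the difference the same since neither array enters it. Pmaip1 encodes Noxa, which pairs with Mcl1 above all. Probe set 1418203_at read 103, 197 and 155 on Mac1- arrays, 73.8, 97.5 and 104 on Mac1+ arrays and 518, 809 and 832 on neutrophil arrays, every neutrophil array above every myeloblast array. The difference from Mac1+ myeloblasts was 2.75 ± 0.27 (6.74-fold, adjusted p = 3.3e-05) and from Mac1- myeloblasts 2.14 ± 0.27 (4.42-fold, adjusted p = 0.000139). All 4 of these neutrophil calls held under every alternative run.

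Bcl2l11 encodes Bim, a strong BH3-only protein that binds every survival member, and its probe sets did not give 1 answer. Probe set 1456006_at read 137, 112 and 121 on Mac1- arrays, 88.7, 90.3 and 109 on Mac1+ arrays and 177, 202 and 226 on neutrophil arrays, and was called higher in neutrophils against Mac1+ (0.96 ± 0.17, adjusted p = 0.00138) and against Mac1- myeloblasts (0.64 ± 0.17, adjusted p = 0.011). The second of these calls was lost with each array centred on its median (0.48, adjusted p = 0.107). Probe sets 1456005_a_at and 1435449_at were called higher against Mac1+ (0.85 and 0.77, adjusted p = 0.0145 and 0.0304) and not against Mac1- myeloblasts (0.51 and 0.65, adjusted p = 0.0998 and 0.0546). The call of 1456005_a_at against Mac1+ was lost without Mac1+ array 3 (0.72, adjusted p = 0.0583). With each array centred on its median both calls were lost (0.65 and 0.57, adjusted p = 0.054 and 0.182). The call of 1435449_at was lost without any 1 of the Mac1+ arrays or without neutrophil array 2 or 3, with differences from 0.52 to 0.81 and adjusted p from 0.0545 to 0.0912. Against Mac1- myeloblasts, 1456005_a_at gained a call without neutrophil array 2 (0.72, adjusted p = 0.0234) and 1435449_at without neutrophil array 1 (0.87, adjusted p = 0.00621).

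The brightest Bcl2l11 probe set, 1435448_at, had no call and a wide spread within the myeloblasts. It read 679, 1568 and 1375 on Mac1- arrays, 1841, 722 and 343 on Mac1+ arrays and 540.2, 495 and 720.0 on neutrophil arrays, so that the populations overlapped. On Mac1+ arrays 1 to 3 single markers ran in the same order, namely Ebf1, a B lineage factor (11772, 8838 and 1898), and Ccr2, a monocyte chemokine receptor (2426, 1183 and 309.9). Most other markers of those lists did not. Dffa (2416, 1196 and 861) and Fadd (1524, 941 and 567), which are on no marker list, ran in that order as well. Cd79b read 551, 737 and 747 and Csf1r read 485, 507 and 715 on the same arrays. The sum over the 7 measured B cell markers (12525, 9764 and 2824) was mostly Ebf1, and Pax5 and Blnk of that list were under 100 on every array. On Mac1- arrays 1 to 3, Ebf1 read 7051, 11104 and 11397 and Ccr2 read 2718, 4074 and 3843. Dffa read 1247, 2314 and 1749 there, and Fadd 889, 1697 and 1541. Each was lowest on array 1, as was 1435448_at. Cd79b (1176, 934 and 1051) was highest on that array, and Csf1r (8385, 8166 and 8797) was lowest on array 2. Gsk3b, also on no marker list, ran in the order of 1435448_at in both myeloblast populations (759, 1293 and 1217, then 1212, 1121 and 805). The part of any of these genes in the spread was not tested. The fifth Bcl2l11 probe set, 1426334_a_at, was dim, at 10 to 43.5 over all arrays, with differences of 0.48 ± 0.24 from Mac1+ (adjusted p = 0.141) and 0.24 ± 0.24 from Mac1- myeloblasts (adjusted p = 0.453).

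Bid, the BH3-only protein that caspase-8 cleaves to carry a death receptor signal to mitochondria, was called higher in neutrophils on only 1 of its 3 probe sets. Its brightest probe set, 1417045_at, read 3339, 2706 and 2888 on Mac1- arrays, 2121, 2281 and 2837 on Mac1+ arrays and 3041, 3601 and 3215 on neutrophil arrays. The difference of neutrophils from Mac1+ myeloblasts, 0.45 ± 0.18, missed the threshold (adjusted p = 0.0686) and passed it under 7 of 20 alternatives, among them without neutrophil array 1 (0.50, adjusted p = 0.0377) or Mac1+ array 3 (0.57, adjusted p = 0.0453). Probe set 1447873_x_at, of a design that can bind other transcripts, was not tested in the alternative without such probe sets. It was called higher in neutrophils, at 343, 324 and 408 against 119.6, 169 and 164 in Mac1+ (1.17 ± 0.19, adjusted p = 0.000849) and 215, 192 and 165 in Mac1- myeloblasts (0.86 ± 0.19, adjusted p = 0.00472). Probe set 1448560_at gave differences of -0.05 ± 0.19 and -0.09 ± 0.19 in the same comparisons, with neutrophil values of 385, 495 and 613 on both sides of the myeloblast range. The 3 Bid probe sets therefore disagreed on whether neutrophils carried more Bid transcript.

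The forkhead factors FOXO1 and FOXO3 are known to switch on Bcl2l11 and Bbc3, and a forkhead motif was present in 1 window of each. The motif GTAAACA, searched on both strands, was found in 3.17% of all windows and in 2 of the 16 windows of the 9 members searched. Those members include Bax, and Pmaip1 was not searched here. In the Bbc3 window, chr7:16310011-16310260 on the plus strand, it begins 167 bases before the start, and in the Bcl2l11 window, chr2:128125788-128126037 on the plus strand, 227 bases before it. Capitals below mark this motif, GC boxes and, in Bcl2l11, a CCAAT box on the reverse strand, a motif in 33.8% of windows. The E-box CACGTG, in 6.02% of windows, was found in another Bbc3 window and in that of Bax. A match is a description of the letters, and no binding was measured.
Bbc3: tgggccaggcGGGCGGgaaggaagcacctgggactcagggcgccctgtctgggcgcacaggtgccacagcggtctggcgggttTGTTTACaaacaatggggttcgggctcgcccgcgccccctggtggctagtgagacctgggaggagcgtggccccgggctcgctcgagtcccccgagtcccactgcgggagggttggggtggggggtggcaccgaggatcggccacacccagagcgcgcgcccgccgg
Bcl2l11: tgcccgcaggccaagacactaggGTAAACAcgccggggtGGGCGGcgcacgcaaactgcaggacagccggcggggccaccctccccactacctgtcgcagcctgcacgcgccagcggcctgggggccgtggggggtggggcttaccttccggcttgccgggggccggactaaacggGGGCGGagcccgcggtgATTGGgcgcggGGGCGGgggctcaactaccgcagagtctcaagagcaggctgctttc

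On the same arrays Foxo3 read 969, 1245 and 1082 in Mac1- myeloblasts, 687, 761 and 767 in Mac1+ myeloblasts and 4759, 3188 and 2579 in neutrophils. It was higher in neutrophils than in Mac1- myeloblasts by 1.62 ± 0.23 (adjusted p = 0.000324), and all 3 neutrophil arrays stood above all myeloblast arrays. Foxo1 read 167, 150.2 and 159, then 49.9, 63.6 and 81.6, and then 57.1, 89.5 and 80.6, and was lower in Mac1+ than in Mac1- myeloblasts (-1.13 ± 0.20, adjusted p = 0.0102), all at low intensity.

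The wider death and survival machinery was read from 8 lists holding 97 genes, of which 84 had a probe set of their own. Each gene was read by its brightest probe set. In neutrophils 22 of the 84 were called higher and 38 lower than in Mac1- myeloblasts, with a median difference of -0.23, where 21.2% of all genes were called higher and 29.3% lower and the median over all genes was 0.05. Against Mac1+ myeloblasts 16 were higher and 35 lower with a median of -0.37, beside 18.5% and 27.6% of all genes. The split became 10 higher and 40 lower with each array centred on its median. Centring moved the median difference of all probe sets in that comparison from 0.16 to -0.04. Among all called probe sets it moved the share called higher from 48.5% to 40.2%. Between the myeloblast populations 6 were higher in Mac1+ cells, 5 lower and 73 not called, beside 5.13% and 4.44% of all genes. Without neutrophil array 1 these 2 counts were 11 and 12, and the share of all genes was not taken for that run. The other members of the family split in both directions in neutrophils against Mac1- myeloblasts. Among survival relatives, Bcl2l2 (Bcl-w) was lower (-2.22, adjusted p = 1.05e-05) and Bcl2l10 was higher at dim values (0.63, adjusted p = 0.018), and the other genes of that list were not analysed here. Among 10 effector or BH3-related relatives, 5 were higher and 2 lower: Bnip3, a mitochondrial BH3-like protein, rose by 1.56 ± 0.14, Bad, a BH3-only protein controlled by phosphorylation, by 1.26 ± 0.19 and Bcl2l14 by 0.83 ± 0.16, while Bcl2l12 and Bcl2l13 were lower (-1.34 and -0.81). Each list gene named for this comparison kept its call without neutrophil array 1.

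Most measured genes of the lists of mitochondrial partners and of the apoptosome, caspases and nucleases were lower in neutrophils. Of 12 mitochondrial partners, 10 were lower and 2 not called in each neutrophil comparison, where 27.6% (against Mac1+) and 29.3% (against Mac1-) of all genes, dim ones included, were called lower. Slc25a4, the adenine nucleotide carrier of the inner membrane, read 5337, 4914 and 5183 on Mac1- arrays, 712, 867 and 887 on Mac1+ arrays and 159, 111 and 101 on neutrophil arrays (-5.23 ± 0.19 over both steps, adjusted p = 8.67e-08). Ppif, the cyclophilin of the permeability transition, and Aifm1, the apoptosis-inducing factor, were lower, with differences of -3.87 ± 0.30 and -3.02 ± 0.44 against Mac1- myeloblasts, the latter -2.41 without neutrophil array 1. Of 10 apoptosome, caspase and nuclease genes, 7 were lower and 2 higher in each neutrophil comparison, with the same shares of all genes lower and 18.5% and 21.2% higher. Parp1, a caspase substrate that repairs DNA, read 2742, 2679 and 2684 on Mac1- arrays, 1191, 1257 and 1467 on Mac1+ arrays and 129.6, 73.5 and 65.4 on neutrophil arrays. Cycs, the cytochrome c that leaves the mitochondrion through the pore, and Dffa, the inhibitor of the apoptotic nuclease, were lower than in Mac1- myeloblasts, at -2.24 ± 0.17 and -1.97 ± 0.37. Casp9, the caspase that cytochrome c activates, and Casp6 were higher by 0.82 ± 0.14 (adjusted p = 0.00128) and 0.48 ± 0.14 (adjusted p = 0.0216).

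**Figure D4:**
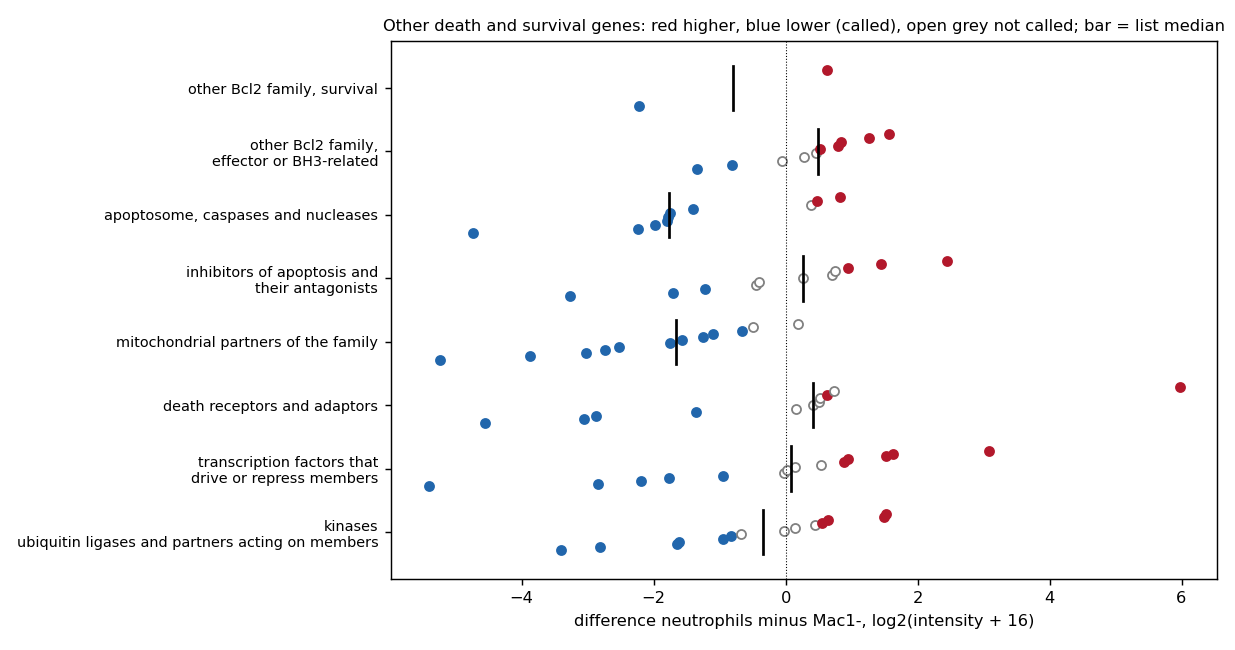
Difference of neutrophils from Mac1- myeloblasts on the log2(intensity + 16) scale for the 84 measured genes of 8 death and survival lists, 1 point per gene with the bar at the list median. Red and blue points were called higher and lower at an adjusted p under 0.05 and open points were not called. The mitochondrial partners lie left of 0 for the 10 called genes of 12, and Fas is the point furthest right.

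Genes that receive or block death signals moved in both directions. Fas, the death receptor for Fas ligand, read 12.8, 7.6 and 8.6 on Mac1- arrays, 40.4, 44.9 and 62.9 on Mac1+ arrays and 1636, 1709.8 and 1443 on neutrophil arrays, with no overlap between populations. Its difference over both steps was 5.97 ± 0.18 (adjusted p = 5.08e-08), measured against a level in Mac1- myeloblasts that is below the offset of 16. Tnfrsf1a, a receptor for tumour necrosis factor, was higher by 0.62 ± 0.18. Fadd, the adaptor that couples Fas to caspase-8, was lower (-2.87 ± 0.37), as were the necroptosis kinase Ripk3 (-3.06 ± 0.18) and its pore-forming substrate Mlkl (-4.56 ± 0.39). Of 11 inhibitors of apoptosis and their antagonists, 3 were higher and 3 lower than in Mac1- myeloblasts, beside 21.2% and 29.3% of all genes. Birc3 (cIAP2), a ubiquitin ligase that restrains death receptor signals, read 751, 665 and 764, then 760.4, 694 and 680.0, and then 4668, 4195 and 3370.1, a difference from Mac1- myeloblasts of 2.45 ± 0.17 (adjusted p = 2.78e-06). Cflar (c-FLIP), which blocks caspase-8, and Naip2 were higher by 1.45 ± 0.16 and 0.95 ± 0.18. Birc5 (survivin), a mitotic protein, and Htra2 and Diablo, which leave mitochondria to block inhibitors of apoptosis, were lower (-3.27, -1.70 and -1.22).

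Of 14 transcription factors known to drive or repress members, 5 were higher and 5 lower in neutrophils than in Mac1- myeloblasts, beside 21.2% and 29.3% of all genes. Ddit3 (CHOP), a stress factor known to raise Bcl2l11, read 306, 221 and 271, then 312, 383 and 396, and then 3286, 2268 and 1747 (3.08 ± 0.25, adjusted p = 6.81e-06), and Stat3, which acts downstream of granulocyte cytokines, was higher by 1.52 ± 0.14. Stat3 was already higher in Mac1+ than in Mac1- myeloblasts (1.29 ± 0.14, adjusted p = 0.000574). Myc, a growth regulator that can sensitise cells to death, read 3705, 3394 and 3209.5, then 1521, 2148 and 2449, and then 95.8, 50 and 55.9 (-5.41 ± 0.25), and E2f1, a cell cycle factor, and Gfi1, a repressor needed for granulocyte formation, were lower, at -2.85 ± 0.29 and -2.20 ± 0.22. Gfi1 was however higher in Mac1+ than in Mac1- myeloblasts (1.15 ± 0.22, adjusted p = 0.0148). Of 14 kinases, ubiquitin ligases and partners, 4 were higher and 6 lower in neutrophils than in Mac1- myeloblasts, beside the same shares of all genes. Mdm2, the ligase that degrades p53, Pim1, a survival kinase, and Akt2 were higher (1.52, 1.49 and 0.64). Dynll2, the dynein light chain that holds Bmf, read 2044, 2827 and 2295, then 1742, 1926 and 1717, and then 187, 215 and 228 (-3.40 ± 0.17), opposite in direction to Bmf itself. Mapk8 (JNK1), which can phosphorylate Bim and Bmf, and Huwe1, a ligase that degrades Mcl1, were lower (-2.81 and -1.64).

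Across the 9 arrays, the list gene whose profile was most like each member's brightest probe set was named by the highest Pearson r, as a description over arrays that fall into 3 populations. Birc3 was nearest to Mcl1 (r = 0.984), Cflar to Bcl2l1 (0.9774), Casp9 to Pmaip1 (0.9814), Ddit3 to Bmf (0.9683), Stat5b to Bbc3 (0.9628) and Tnfsf10, a death receptor ligand, to Bcl2 (0.9603). The nearest genes to Bak1 (Htra2, 0.8634), Bid (Casp6, 0.8149) and Bcl2l11 (Dffa, 0.7847) were less alike. The points of a pair share their libraries.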

How the data were processed

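RNA of 9 sorted bone marrow samples was measured on Affymetrix mouse arrays, 3 arrays for each of 3 populations. The values are the authors' deposited intensity for each probe set on a linear scale. The software, background correction and scaling behind them are not given in the sources used here. Array means were 549 to 727 and array medians 39.1 to 61.8. After removal of 64 control probe sets, log2(intensity + 16) was taken of the deposited values and 45037 probe sets were fitted in 1 model over all 9 arrays with limma 3.58.1 in R 4.3.3. The 3 contrasts between populations were tested two-sided with Benjamini-Hochberg adjustment over all probe sets. The procedure was tested on simulated data. The offset of 16 understates the change of dim probe sets, and precision is limited by 3 arrays per population.

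The platform annotation gave 34945 probe sets exactly 1 gene symbol. All 30 member symbols matched RefSeq by gene ID. The members and the gene lists were chosen with earlier results of these data known. Every member probe set was described. From each list, up to 3 genes in each direction with the largest called difference between neutrophils and Mac1- myeloblasts were named, and marker genes and Foxo1, the latter chosen after its values were seen, were added beside results they bear on. Promoter windows came from RefSeq (GRCm38.p6), cut to the 250 bases before each start. Alternatives were another normalization, centring, offsets of 1 and 64, a filter on low values, 1 probe set per gene, omission of probe sets that can cross-hybridise, a trended and robust prior, a fit restricted to 2 populations, a 2-fold minimum, a block on replicate number and omission of each array.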

Additional observations from a re-analysis of the deposited data

How the results depend on the processing

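No called member difference changed direction under any alternative run. The uncalled difference of Bcl2 probe set 1437122_at in neutrophils against Mac1+ myeloblasts turned to -0.55 without neutrophil array 1 and lay between -0.55 and 1.19 with 1 array left out. Counts of member probe sets moved as follows. Between the myeloblast populations, the 1 called higher became 0 with the replicate block or the 2-fold minimum and lay between 0 and 1 with 1 array left out. The 2 called lower became 1 with the replicate block, with an offset of 1 or with 1 probe set per gene, became 6 with only the 2 populations compared, and lay between 1 and 6 with 1 array left out. In neutrophils against Mac1+ myeloblasts, the 16 of 30 probe sets called higher became 6 of 9 with 1 probe set per gene, and lay between 14 and 17 with 1 array left out. The 1 called lower became 0 with quantile normalization or the 2-fold minimum, became 2 with centred arrays, and lay between 1 and 4 with 1 array left out. Against Mac1- myeloblasts, the 14 called higher became 5 with 1 probe set per gene and 9 without x_at and s_at probe sets (22 remain), and lay between 13 and 16. The 2 called lower became 1 with 1 probe set per gene, and lay between 2 and 4. The alternative with 1 probe set per gene held only 9 member probe sets. On the same 9 the main run called 5 higher in each neutrophil comparison and 1 lower in every comparison. Only the call of Bid 1417045_at in neutrophils against Mac1+ myeloblasts differed, gained with 1 probe set per gene (adjusted p = 0.0485).

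Counts over the death and survival lists moved too, and the shares of all genes called were not taken for these alternatives. Between the myeloblast populations, the 6 called higher became 3 with the replicate block and 12 with only the 2 populations compared, and lay between 2 and 11 with 1 array left out. The 5 called lower became 8 with an offset of 64, 3 without x_at and s_at probe sets, 3 with the 2-fold minimum and 12 with only the 2 populations compared, and lay between 1 and 12. In neutrophils against Mac1+ myeloblasts, the 16 called higher became 10 with centred arrays and 8 with the 2-fold minimum, and lay between 12 and 20. Against Mac1- myeloblasts, the 22 called higher became 10 with the 2-fold minimum, and lay between 17 and 26. The cause of these moves was not tested. Some of the alternatives hold fewer genes, arrays or probe sets by their construction.

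Samples with the same replicate number did not deviate together: their correlations lay between -0.234 and 0.0741, so the numbers were not taken as pairs. With the replicate block, 16 member probe sets were called higher in neutrophils against Mac1+ and 15 against Mac1- myeloblasts, and Bcl2 1422938_at and Bcl2l1 1420888_at lost their calls between the myeloblast populations (adjusted p = 0.0521 and 0.0513). Only 3 arrays per population, dim probe sets and the unstated scaling limit all of these values.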
